A study of Mus musculus with 12 samples.

Results

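The IL-1 ligands and receptors are 7 mouse genes chosen by name: the ligands Il1a, Il1b and Il18, the antagonist Il1rn, and the receptor genes Il1r1, Il1rap and Il1r2. Earlier results of these data were known at the choice, which limits what counts of members beside the share of all genes can show. All 7 were found among the 22180 genes measured on the arrays, and each is represented by the row with the highest mean where several rows name it. Dorsal skin RNA of C57Bl/6 mice was read on 12 expression arrays, each holding 1 pool of 4 or 5 mice of both sexes. The mice carried IL-17C+ (a transgene that overexpresses the cytokine IL-17C), IL-17C+KO (the same transgene with loss of IL-6), IL-6KO (loss of IL-6 alone) or neither (WT), by their labels. Skin of both transgenic lines was taken from involved and from uninvolved areas. This gives involved and uninvolved IL-17C+ skin, involved and uninvolved IL-17C+KO skin, IL-6KO skin and WT skin, 6 groups each with 1 pool at 10 weeks and 1 at 14 weeks (n = 2). Loss of IL-6 is shared, by label, between the IL-17C+KO groups and IL-6KO. The sources used here do not give the promoter or the cell type that drives the transgene. One label field calls the IL-6KO skin involved and the WT skin uninvolved, although the titles give neither of them a site.

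IL-1α and IL-1β, encoded by Il1a and Il1b, bind the same receptor, IL-1R1 (Il1r1). IL-1R1 then recruits the accessory protein encoded by Il1rap and signals through MyD88 and IRAK kinases to NF-kB and the chemokine genes under its control. IL-1Ra (Il1rn) occupies the receptor without signalling, and IL-1R2 (Il1r2) is a decoy that lacks the signalling domain. IL-1β and IL-18 are made as precursors that caspase-1 cleaves in the inflammasome, whereas the precursor of IL-1α is active by itself and is stored in keratinocytes. In inflamed skin, neutrophils and macrophages are major sources of IL-1β, while keratinocytes supply IL-1α, IL-1Ra and IL-18.

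The genes fall into close neighbours and separate loci. On chromosome 2 of GRCm38.p6, Il1a (129299609 to 129310186) and Il1b (129364569 to 129371164) lie 54382 bases apart, and Il1rn lies at 24336860 to 24351491 on the same chromosome. Il1r2 (40084692 to 40125230) and Il1r1 (40222480 to 40316201) are neighbours on chromosome 1, Il1rap lies on chromosome 16 (26581509 to 26730128) and Il18 on chromosome 9 (50554700 to 50581841). The 250 bases before the RefSeq start of the 3 ligand genes are shown because the ligands differed in how widely they ranged, with log2 levels that span 6.23 in Il1b, 3.16 in Il1a and 2.11 in Il18. For Il1a and Il1b this start lies inside the gene's annotated extent. Capitals mark every match, on either strand, to TATAAA (the TATA box), TGANTCA (AP-1) or TTNNGNAA (C/EBP).
Il1a (GRCm38.p6 chr2:129309973-129310222, minus strand): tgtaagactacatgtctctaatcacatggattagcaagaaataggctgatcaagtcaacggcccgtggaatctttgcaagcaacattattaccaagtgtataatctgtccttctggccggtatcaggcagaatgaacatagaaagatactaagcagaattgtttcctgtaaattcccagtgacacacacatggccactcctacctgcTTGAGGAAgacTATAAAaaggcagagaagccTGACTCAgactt
Il1b (GRCm38.p6 chr2:129371140-129371389, minus strand): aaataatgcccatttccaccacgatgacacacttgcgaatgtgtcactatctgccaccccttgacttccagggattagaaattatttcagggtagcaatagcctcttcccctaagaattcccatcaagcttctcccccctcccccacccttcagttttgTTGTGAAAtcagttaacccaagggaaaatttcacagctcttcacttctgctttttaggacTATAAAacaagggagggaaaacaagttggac
Il18 (GRCm38.p6 chr9:50554450-50554699, plus strand): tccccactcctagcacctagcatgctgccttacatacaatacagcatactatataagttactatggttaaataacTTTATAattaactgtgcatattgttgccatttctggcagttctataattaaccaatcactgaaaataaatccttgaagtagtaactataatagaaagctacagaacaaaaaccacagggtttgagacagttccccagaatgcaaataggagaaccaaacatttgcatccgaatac
Il1a has TATAAA from 32 to 27 bases before its start and Il1b from 31 to 26 bases before its start, both on the strand of the gene. In Il18 the only match to these letters lies on the opposite strand, 175 to 170 bases before the start. Of 32851 RefSeq starts searched over the same 250 bases, 12.4% hold TATAAA, 6.75% TGANTCA and 36.8% TTNNGNAA on either strand. The AP-1 letters of Il1a lie 12 to 6 bases before the start, and C/EBP letters occur in Il1a and in Il1b. The NF-kB consensus, which 7.25% of the starts hold, occurs among the 10 starts of the 7 genes only before 1 start of Il1r1. These are matches of letters within a short window.

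Before the results, the labels were set against the genes they name. Keratinocyte markers (6 of 7 listed were measured) were above the array median on every array and averaged 9.08 to 9.92 on the log2 scale. Il17c, the gene that the transgene overexpresses, read 5.81 at 10 weeks and 6.63 at 14 weeks in skin labelled IL-17C+ involved, but 4.74 and 4.16 in the uninvolved IL-17C+ pools. The IL-17C+KO pools read 5.32 and 5.62 where labelled involved, and 6.16 and 6.25 where labelled uninvolved. The IL-6KO pools, which carry no transgene by their label, read 6.30 and 6.17, against 4.67 and 4.96 in the WT pools. The IL-6KO pair thus lay above WT (difference 1.42 ± 0.30, limma adjusted p = 0.0661), and the IL-17C+ uninvolved pair did not (-0.37 ± 0.30, limma adjusted p = 0.904). Il6 was highest in the skin labelled IL-17C+KO uninvolved (4.93 and 5.00), against 2.92 and 2.88 in WT, and rose there by 2.07 ± 0.41 (limma adjusted p = 0.0288), although the label is a loss of IL-6. In the other skins labelled as lacking IL-6 it read 3.14 and 4.64 (IL-17C+KO involved) and 2.68 and 2.79 (IL-6KO). The IL-17C+ pools read 4.23 and 3.21 where involved, and 3.28 and 3.02 where uninvolved. The sources used here do not say whether the Il17c row reads the transgene or the Il6 row the deleted part. Group names below are therefore names of labels, and every direction rests on them.

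Il1b, the inflammatory ligand made largely by myeloid cells, split the 12 arrays into a high and a low set. Skin labelled IL-17C+ involved read 10.40 on the log2 scale at 10 weeks and 11.08 at 14 weeks, and skin labelled IL-17C+KO uninvolved 10.63 and 10.67. The uninvolved IL-17C+ pools read 6.17 and 5.04, the involved IL-17C+KO pools 4.95 and 6.42, and the IL-6KO pools 4.85 and 5.90, against 4.85 and 4.87 in the WT pools. No array lay between 6.42 and 10.40. By group mean the order was IL-17C+ involved skin at 10.74, IL-17C+KO uninvolved skin at 10.65, IL-17C+KO involved skin at 5.69, IL-17C+ uninvolved skin at 5.60, IL-6KO at 5.38 and WT at 4.86. Neighbours in this order overlapped, except IL-17C+KO uninvolved and IL-17C+KO involved skin. On the 4 high arrays Il1b exceeded between 99.5% and 99.8% of all genes, and on the WT arrays between 54.8% and 54.9%.

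Il1a, the ligand stored in keratinocytes, had a different pattern. Skin labelled IL-17C+ involved read 6.31 at 10 weeks and 7.44 at 14 weeks, and the uninvolved IL-17C+ pools 4.34 and 4.77. The involved IL-17C+KO pools read 4.86 and 6.47, the uninvolved ones 6.36 and 7.14, and the IL-6KO pools 5.03 and 6.74, against 4.29 and 4.61 in the WT pools. The 2 pools of IL-6KO skin and of IL-17C+KO involved skin lay far apart, low at 10 weeks and within the range of the higher groups at 14 weeks. The only gap between neighbours in the order of group means was the one between IL-17C+KO involved (5.67) and IL-17C+ uninvolved (4.55).

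Il18, the third ligand, was high in groups where Il1b was high and in groups where it was low. The IL-6KO pools read 7.65 at 10 weeks and 8.41 at 14 weeks, the involved IL-17C+KO pools 7.27 and 8.34, and the uninvolved IL-17C+KO pools 7.70 and 7.62. The involved IL-17C+ pools read 7.29 and 7.61 and the uninvolved ones 6.63 and 6.58, against 6.30 and 6.93 in the WT pools. All 8 arrays of IL-6KO, IL-17C+KO and IL-17C+ involved skin lay above the 4 arrays of IL-17C+ uninvolved and WT skin.

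**Figure D1:**
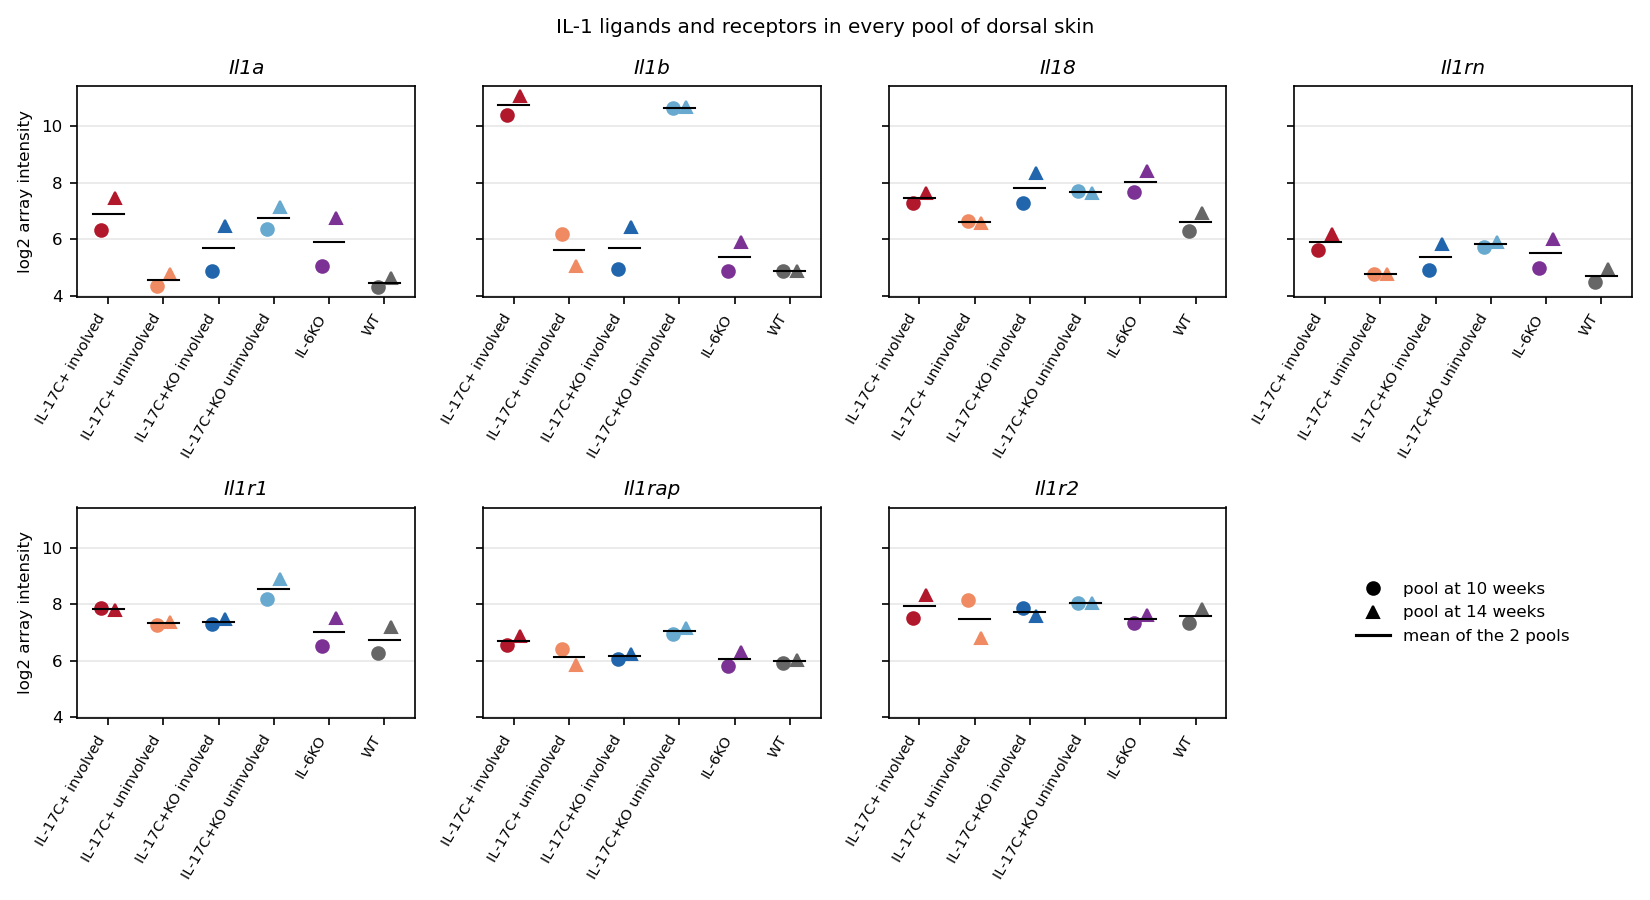
Log2 array intensity (vertical axis) of the 7 genes in each of the 6 groups, with 1 circle (10 weeks) and 1 triangle (14 weeks) per group and a bar at their mean. Il1b lies at 10.40 or above in IL-17C+ involved and IL-17C+KO uninvolved skin and at 6.42 or below elsewhere, whereas Il1r2 stays between 6.80 and 8.32 on all arrays.

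Il1rn, which encodes the receptor antagonist, had the same order of groups as Il1a over a smaller range, 4.48 to 6.20. The involved IL-17C+ pools read 5.63 at 10 weeks and 6.20 at 14 weeks, and the uninvolved ones 4.78 and 4.75. The involved IL-17C+KO pools read 4.91 and 5.81, the uninvolved ones 5.72 and 5.90, and the IL-6KO pools 4.98 and 6.00, against 4.48 and 4.92 in the WT pools. The antagonist gene overlapped between the 4 higher groups, and again the gap lay above IL-17C+ uninvolved skin.

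Among the receptor genes, Il1r1 (the signalling receptor) read 7.86 at 10 weeks and 7.79 at 14 weeks in skin labelled IL-17C+ involved, and 7.27 and 7.37 in its uninvolved counterpart. The involved IL-17C+KO pools read 7.29 and 7.46, the uninvolved ones 8.18 and 8.89, and the IL-6KO pools 6.52 and 7.50, against 6.27 and 7.19 in the WT pools. IL-17C+KO uninvolved skin was thus highest, above IL-17C+ involved skin by a gap of 0.32. Il1rap, the co-receptor, followed the same order in its top 2 groups, with 6.94 and 7.17 in IL-17C+KO uninvolved and 6.55 and 6.85 in IL-17C+ involved skin. Its other 8 arrays lay between 5.81 and 6.42. Both further rows that name Il1rap read only 2.24 to 3.46, below every array median (3.97 to 4.23), and were not used. Il1r2, the decoy receptor, ranged from 6.80 to 8.32, with both extremes in transgenic skin at 14 weeks (IL-17C+ uninvolved and IL-17C+ involved), and every group overlapped its neighbour in the order.

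The first comparison sets skin labelled IL-17C+ involved against WT skin. Against WT, both IL-1 agonist genes rose in skin labelled IL-17C+ involved. Il1b rose by 5.88 ± 0.46 on the log2 scale (± is the standard error of limma, n = 2 pools a group), a 58.9-fold difference (limma, Benjamini-Hochberg adjusted p = 7.87e-05). Il1a rose by 2.43 ± 0.33, or 5.37-fold (limma adjusted p = 0.00304), and the antagonist gene Il1rn by 1.21 ± 0.27, or 2.31-fold (limma adjusted p = 0.0456). Thus 3 of 7 members were called higher, where 1.1% of all 22180 genes were (1.8% in either direction). Il1r1 differed most among those that did not pass, by 1.10 ± 0.30 (limma adjusted p = 0.0969), and Il18, Il1rap and Il1r2 differed by 0.84, 0.73 and 0.33. All 7 members were higher at both ages, and their median difference was 1.10 against 0.01 for all genes. Each group has 1 pool per age, so the spread behind these p-values is how far groups depart from the shared age difference. It mixes pool differences, part of which may be technical, with any age change that differs between groups. The limma spread of a gene also borrows from the other genes. Without age in the model Il1a and Il1rn no longer passed (limma adjusted p = 0.066 and 0.158). Il1rn also failed in 6 of the 12 fits that left out 1 array, those without an array of IL-17C+ involved, WT or IL-17C+KO uninvolved skin, with limma adjusted p between 0.0635 and 0.287.

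Neutrophil markers moved with Il1b. Of 14 listed, 13 were measured, and 8 rose and 0 fell in this comparison. The mean of the 13 was 5.79 at 10 weeks and 6.32 at 14 weeks in IL-17C+ involved skin, and 5.92 and 6.63 in the uninvolved IL-17C+KO pools. On the 4 arrays of these groups 10 to 12 of the 13 markers were above the array median, against 2 to 7 on the other 8 arrays. On those 8 the mean lay between 3.43 (WT at 14 weeks) and 3.98 (WT at 10 weeks). The defining marker Ly6g was above the array median on 3 arrays, and the granule genes Ltf and Camp on 2 and 0. Skeletal muscle markers moved the other way, with 10 of 11 lower in IL-17C+ involved skin than in WT and means of 8.10 and 7.85 against 10.09 and 10.77. Mast cell markers moved with Il1b as well. Of 6 measured, Tpsb2 (2.07 ± 0.35) and Mcpt4 (1.66 ± 0.32), both mast cell proteases, rose and 0 fell. The mean of the 6 was 6.75 and 6.49 in IL-17C+ involved skin and 6.03 and 6.14 in the uninvolved IL-17C+KO pools, against 4.86 to 5.62 on the other 8 arrays, with 5 of 6 above the array median on every array. Macrophage markers (8 of 9 measured) averaged 6.94 and 6.84 in IL-17C+ involved skin against 7.03 and 7.20 in WT. In whole skin, more cells of a type and more RNA per cell cannot be told apart, and the part of these cells in the Il1b result was not tested.

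**Figure D2:**
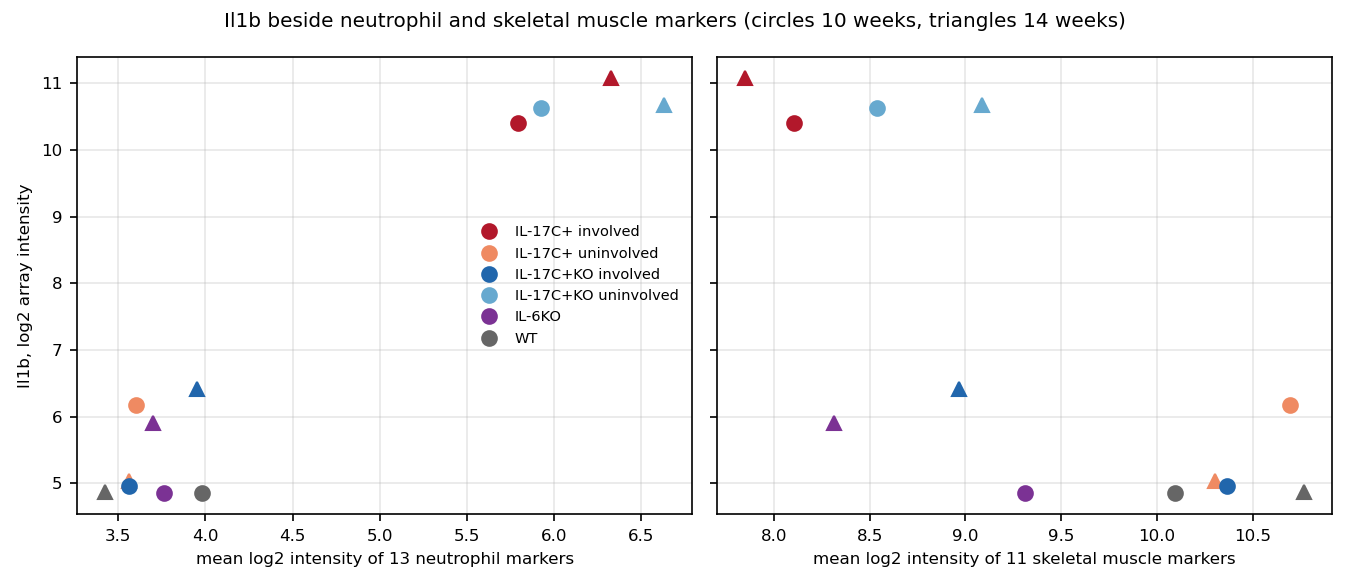
Log2 level of Il1b (vertical axis) on each of the 12 arrays against the mean log2 level of 13 neutrophil markers (left) and of 11 skeletal muscle markers (right). The 4 arrays with high Il1b are those with neutrophil means of 5.79 or more, while their muscle means (7.85 to 9.09) overlap those of IL-6KO skin (9.31 and 8.31).

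The same transgenic line allows involved skin to be set against uninvolved skin. In this comparison Il1b rose by 5.14 ± 0.46 (35.2-fold, limma adjusted p = 0.000249) and Il1a by 2.32 ± 0.33 (5.00-fold, limma adjusted p = 0.00416). So 2 of 7 members were called higher, against 0.775% of all genes (1.61% in either direction). The Il1b difference was 4.23 at 10 weeks and 6.04 at 14 weeks. Il1rn came closest among the others at 1.15 ± 0.27 (limma adjusted p = 0.0621), and the remaining 4 members differed by 0.45 to 0.85. The receptor gene Il1r1 differed by 0.50 here and by 1.10 against WT. Il1a did not pass without age in the model (limma adjusted p = 0.0864) or without the 14-week IL-17C+ involved array (limma adjusted p = 0.0734). The sources used here do not say whether involved and uninvolved pools share mice. Both comparisons use the IL-17C+ involved arrays. Cell type markers moved between the sites too. Of 13 neutrophil markers 8 were higher, of 6 mast cell markers 2 were higher, and of 11 skeletal muscle markers 10 were lower. Their part in the Il1b and Il1a results was not tested.

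Skin of IL-17C+ mice outside the involved areas showed no call against WT in this gene set. With limma 0 of 7 members passed, also 0 at an unadjusted p under 0.05, and 0.0541% of all genes passed. The largest difference was that of Il1b, 0.74 ± 0.46 (95% interval -0.26 to 1.75, limma adjusted p = 0.893). It was 1.32 in the 10-week pools and 0.17 at 14 weeks, and without the 10-week IL-17C+ uninvolved array it was -0.15. The other members differed by -0.12 to 0.59, and the 95% interval of Il1a (-0.62 to 0.83) leaves out a rise of the size seen in involved skin.

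Loss of IL-6 without the transgene is the label of the IL-6KO skin, where Il1a and Il18 differed most from WT without passing the test. Il1a differed by 1.43 ± 0.33 (limma adjusted p = 0.108), at 0.74 in the 10-week and 2.12 in the 14-week pools. Il18, singled out after its values were seen, differed by 1.42 ± 0.30 (limma adjusted p = 0.0668), at 1.36 and 1.48. With limma 0 of 7 members passed and 3 had an unadjusted p under 0.05, where 0.455% of all genes passed. The other members differed by -0.12 to 0.79. Il1b differed by 0.51 ± 0.46 (95% interval -0.49 to 1.52). Il18 passed in 4 of the 12 fits that left out 1 array, those without an array of IL-17C+ uninvolved or IL-17C+KO involved skin. Of the fibroblast markers 3 of 6 fell, with means of 9.69 and 9.61 in IL-6KO skin against 11.12 and 10.88 in WT, and 4 of 8 measured hair shaft markers rose, with means of 7.92 and 8.09 against 5.56 and 6.15. Their part in these differences was not tested.

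In skin labelled IL-17C+KO uninvolved, where Il6 read above WT against its label, 3 of the genes rose. All comparisons with WT share the WT arrays. Il1b rose by 5.78 ± 0.46 in IL-17C+KO uninvolved skin (55.1-fold, limma adjusted p = 9.56e-05), by 5.77 at 10 weeks and 5.80 at 14 weeks. Il1a rose by 2.30 ± 0.33 (4.92-fold, limma adjusted p = 0.00504) and the signalling receptor gene Il1r1 by 1.80 ± 0.30 (3.49-fold, limma adjusted p = 0.0115). That is 3 of 7 members called higher, against 1.12% of all genes (1.39% in either direction), with all 7 higher at both ages and a median of 1.11. Il1rn differed by 1.11 ± 0.27 (limma adjusted p = 0.076), and Il1rap, Il18 and Il1r2 by 1.08, 1.05 and 0.46. Neutrophil markers rose in 9 of 13, while 0 of 6 mast cell markers passed. Of the other markers 2 of 8 for hair shaft rose, and 1 of 6 for keratinocytes and 1 of 11 for skeletal muscle fell. Their part in these differences was not tested. Il1a lost its call without age in the model (limma adjusted p = 0.106) and without the 10-week IL-17C+KO uninvolved array (limma adjusted p = 0.0857). Il1r1 lost its call without either IL-17C+KO uninvolved array or without the 10-week WT array, with limma adjusted p between 0.0737 and 0.129.

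In skin labelled IL-17C+KO involved, 0 of 7 members passed against WT with limma (3 at an unadjusted p under 0.05), and 0.0225% of all genes did. Il1a differed most, by 1.22 ± 0.33 (limma adjusted p = 0.371), and the rest by 0.14 to 1.19. Il1b differed by 0.82 ± 0.46, with a 95% interval of -0.18 to 1.83 that lies below the 5.88 of IL-17C+ involved skin. Against IL-6KO skin 0 of 7 members passed again (0 at an unadjusted p under 0.05), and 0.171% of all genes did. The largest difference was that of Il1r1 at 0.36 ± 0.30 (95% interval -0.29 to 1.01, limma adjusted p = 0.999), and the others lay between -0.22 and 0.31. Leaving out both IL-6KO arrays changed no call of a member in the comparisons that do not use them, except that Il1rn passed in the interaction of site with IL-6. Fibroblast marker means were 9.92 and 10.02 in IL-17C+KO involved skin, near those of IL-6KO skin. Hair shaft markers differed, with 3 of 8 lower than in IL-6KO skin and means of 4.40 and 6.01 against 7.92 and 8.09.

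**Figure D3:**
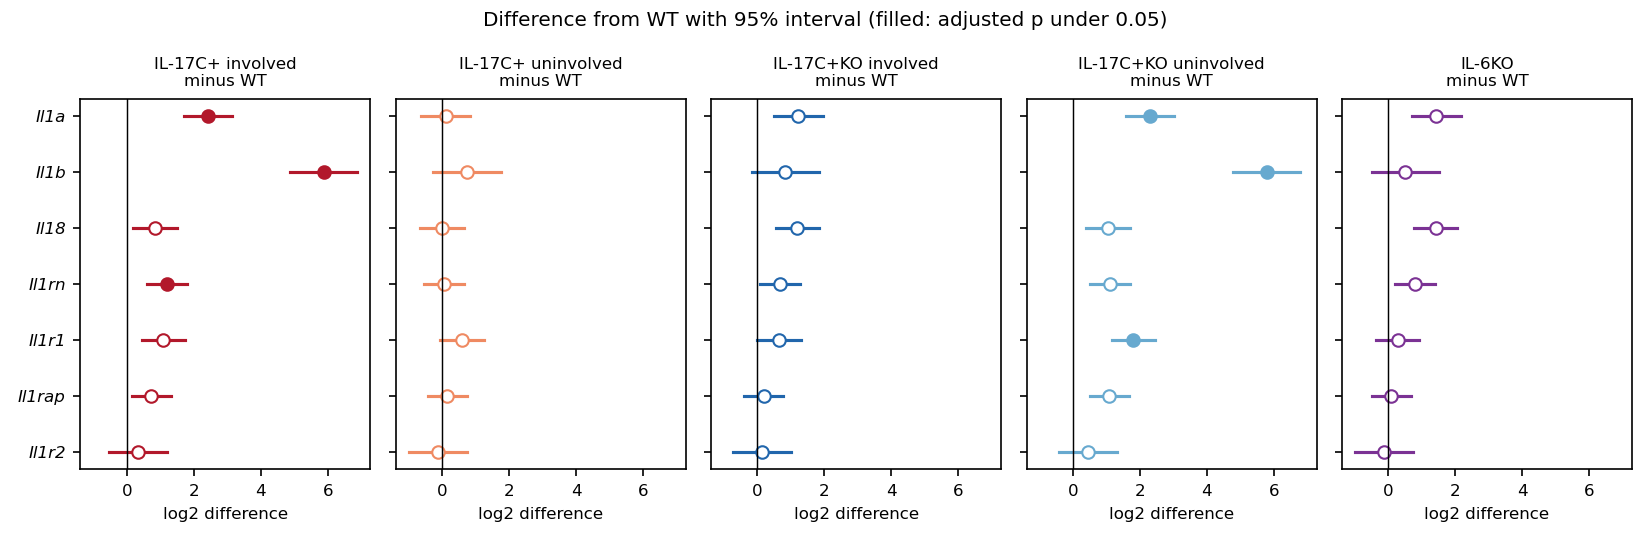
Log2 difference from WT (horizontal axis) of each of the 7 genes in the 5 other groups, with 95% intervals from limma and filled points where the adjusted p was under 0.05. Il1b lies at 5.88 in IL-17C+ involved and 5.78 in IL-17C+KO uninvolved skin, and its intervals in the 3 other panels include 0.

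For Il1b, the contrast of involved with uninvolved skin ran in opposite directions in the lines labelled IL-17C+KO and IL-17C+. This rests on the site labels and the genotype labels of both lines. Exchanging the site labels of the IL-17C+KO pools would turn the sign of the IL-17C+KO contrast. It would give both lines the same direction with differences of similar size. Exchanging the genotype labels of the uninvolved pools would instead leave little site difference in either line. The Il1b group means would then be 10.74 and 10.65 in IL-17C+ skin, and 5.69 and 5.60 in IL-17C+KO skin. Whether any labels were exchanged was not tested. In IL-17C+KO mice Il1b was lower in skin labelled involved than in uninvolved skin, by -4.96 ± 0.46 (31.1-fold lower, limma adjusted p = 0.000285), which is 1 of 7 members called lower where 0.478% of all genes were (0.505% in either direction). Il1r1 differed by -1.16 ± 0.30 without passing (limma adjusted p = 0.177), and the other 5 members by -1.08 to 0.14. The test of the difference between the 2 contrasts, IL-17C+KO minus IL-17C+, gave -10.10 ± 0.65 for Il1b (limma adjusted p = 5.16e-06) and -3.40 ± 0.47 for Il1a (limma adjusted p = 0.002). This made 2 of 7 members lower, against 1.43% of all genes (2.58% in either direction). Il1r1 differed most among the rest, by -1.67 ± 0.42 (limma adjusted p = 0.0606), and the remaining 4 by -0.70 to -1.59. The antagonist gene Il1rn lay at the edge of the threshold (limma adjusted p = 0.0502) and passed without both IL-6KO arrays (limma adjusted p = 0.0463). In the same interaction 11 of 13 neutrophil markers and 4 of 6 mast cell markers (Tpsb2, Mcpt4, Cma1 and Kit) were lower, and 9 of 11 skeletal muscle markers were higher. Their part in the Il1b result was not tested. Without age in the model Il1a missed the threshold (limma adjusted p = 0.0533).

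**Figure D4:**
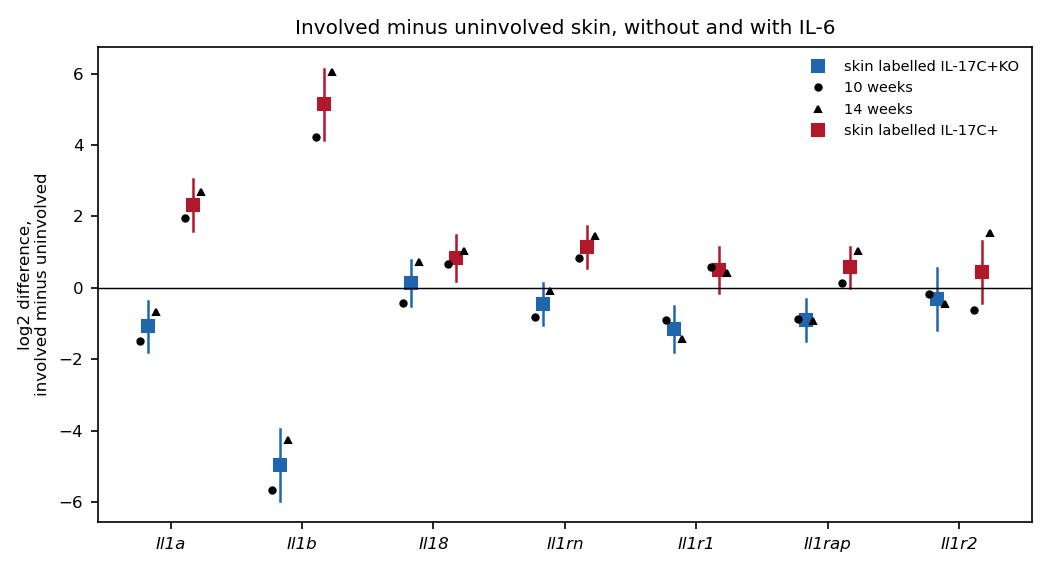
Log2 difference of involved minus uninvolved skin (vertical axis) for each gene in IL-17C+KO (blue) and IL-17C+ (red) mice, as squares with 95% intervals and with the 10-week (circles) and 14-week (triangles) values. Il1b lies at -4.96 in IL-17C+KO and at 5.14 in IL-17C+ mice, while the intervals of Il1r2 include 0 in both.

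The lines labelled IL-17C+KO and IL-17C+ were also compared within each site label. Between the skins labelled involved, Il1b was lower in IL-17C+KO than in IL-17C+ mice by -5.06 ± 0.46 (33.3-fold lower, limma adjusted p = 0.000392), 1 of 7 members against 0.419% of all genes called lower (0.649% in either direction). Il1a differed by -1.21 ± 0.33 (limma adjusted p = 0.16), and Il18 was the only member with a positive difference, 0.35. Between the skins labelled uninvolved the direction turned. Il1b was higher in IL-17C+KO than in IL-17C+ mice by 5.04 ± 0.46 (32.9-fold, limma adjusted p = 0.000216) and Il1a by 2.19 ± 0.33 (4.58-fold, limma adjusted p = 0.0075), 2 of 7 members against 0.541% of all genes (0.712% in either direction). Il1r1 differed by 1.21 ± 0.30 (limma adjusted p = 0.124), and the others by 0.57 to 1.06. This Il1a call ended without age in the model (limma adjusted p = 0.182) and without the 14-week IL-17C+ uninvolved array or either IL-17C+KO uninvolved array (limma adjusted p of 0.0694 to 0.121). When each involved skin was first set against its own transgene-free label (IL-17C+KO involved minus IL-6KO, IL-17C+ involved minus WT), the difference of the differences was -5.57 ± 0.65 for Il1b (limma adjusted p = 0.00219) and -2.64 ± 0.47 for Il1a (limma adjusted p = 0.0179). That made 2 of 7 lower where 0.834% of all genes were (1.31% in either direction). Il1rn differed by -1.34 ± 0.39 (limma adjusted p = 0.157) and the other 4 by -0.07 to -1.06. Il1a lost this call without age in the model (limma adjusted p = 0.218) and in 5 of the 12 fits that left out 1 array (either IL-17C+ involved array, the 14-week WT, the 14-week IL-6KO or the 10-week IL-17C+KO involved array), with limma adjusted p of 0.0839 to 0.121. Il17c itself did not rise in both parts of the difference of the differences. It differed by -0.77 ± 0.30 in IL-17C+KO involved minus IL-6KO skin and by 1.40 ± 0.30 in IL-17C+ involved minus WT skin. Markers of other cell types moved between the lines and in the difference of the differences. Of 13 neutrophil markers, 8 were lower between the involved skins, 8 were higher between the uninvolved skins and 7 were lower in the difference of the differences. In that last test 5 of 8 hair shaft markers and 1 of 6 mast cell markers were also lower, and 9 of 11 skeletal muscle markers higher. Their part in the Il1b and Il1a results was not tested.

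Of 38 further pathway genes, 35 were measured. Their lists, including that of the targets, were chosen by name with earlier results of these data known. The part of IL-1 signalling, of the IL-17C transgene or of neutrophils in their differences was not tested. In IL-17C+ involved skin against WT, where 1.1% of all genes were called higher, 7 of the 35 rose and 0 fell (median of the 35 at 0.44). They were Il33 (1.55 ± 0.35, an alarmin cytokine of the IL-1 family), Nlrp3 (2.04 ± 0.35, the inflammasome sensor) and 5 of 12 targets. Among the targets Cxcl2 (3.78 ± 0.43, a neutrophil chemokine), Lcn2 (3.08 ± 0.45, a siderophore-binding antimicrobial protein) and Ptgs2 (2.82 ± 0.36, the inducible cyclooxygenase) differed most. None of the 11 measured signalling genes, which include Myd88 and Irak1, passed in any of the 13 comparisons by limma. Their median was 0.08 in this comparison.

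IL-17C+KO uninvolved skin had 11 of the 35 pathway genes higher than WT and 0 lower (median 0.63), where 1.12% of all genes were called higher. Here 3 of 7 inflammasome genes rose, namely Casp1 (2.30 ± 0.46), which encodes the protease that matures IL-1β and IL-18, Casp4 (2.01 ± 0.41), an inflammatory caspase, and Nlrp3 (1.57 ± 0.35). Il18rap (1.89 ± 0.32), the accessory chain of the IL-18 receptor, and Il33 (1.59 ± 0.35) rose too. Of the 12 targets 6 rose, led by Lcn2 (3.76 ± 0.45), Cxcl2 (3.66 ± 0.43) and Ptgs2 (3.14 ± 0.36), and Il6 itself, whose label is a deletion, was among them at 2.07 ± 0.41. In the other comparisons with WT the pathway counts were 1 higher in IL-6KO skin (Lcn2, 2.47 ± 0.45), 0 in the uninvolved IL-17C+ pools and 0 in the involved IL-17C+KO pools. Of all genes 0.455%, 0.0541% and 0.0225% passed there, in either direction. The caspase differences were not particular to IL-17C+KO uninvolved skin. Without passing, Casp1 and Casp4 differed from WT by 2.31 and 1.88 in IL-6KO skin. They differed by 2.08 and 2.37 in IL-17C+KO involved skin and by 1.95 and 1.47 in IL-17C+ involved skin. In the interaction of site with IL-6, 8 of 35 were lower and 0 higher, where 1.43% of all genes were called lower. Cxcl2 (-7.49 ± 0.61), Ptgs2 (-5.79 ± 0.51) and Lcn2 (-5.06 ± 0.64) led the targets, and Nlrp3 was at -4.54 ± 0.49. Il18rap (-2.93 ± 0.45) and Il33 (-2.73 ± 0.49) were the 2 lower among the other receptors and ligands.

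The agonist gene Il1b and the antagonist gene Il1rn did not change in equal measure, a description that carries no test. Taken within each array and relative to the WT mean, the log2 difference of Il1b minus Il1rn was 4.62 at 10 weeks and 4.72 at 14 weeks in IL-17C+ involved skin, and 4.75 and 4.61 in the uninvolved IL-17C+KO pools. The uninvolved IL-17C+ pools had 1.23 and 0.13, the involved IL-17C+KO pools -0.12 and 0.44, and the IL-6KO pools -0.29 and -0.26. For the decoy and the signalling receptor the same measure, Il1r2 minus Il1r1, was -1.21 and -0.32 in IL-17C+ involved skin, and -0.98 and -1.71 in the uninvolved IL-17C+KO pools. In IL-17C+ uninvolved skin it was 0.01 and -1.43, in IL-17C+KO involved skin -0.27 and -0.73, and in IL-6KO skin -0.06 and -0.74. For Il1b minus Il1rn the 2 high groups overlapped each other and stood apart from the other 4. For the receptors they did not stand apart. IL-17C+ uninvolved skin overlapped both of them, and IL-17C+KO involved and IL-6KO skin overlapped IL-17C+ involved skin.

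Genes with the profile closest to each member were ranked by the root mean square difference of centred log2 levels over the 12 arrays. Nearest to Il1b were Tnc (0.46, tenascin C, a matrix protein of wounds), Stfa2l1 (0.55, a stefin-type protease inhibitor) and Retnlg (0.59, a neutrophil gene). Il1a was nearest to Endou (0.35), Trex2 (0.37, a keratinocyte exonuclease) and Dhrs9 (0.38, a retinol dehydrogenase). Il18 lay closest to Abca12 (0.17, the lipid transporter of the epidermal barrier), Smpdl3a (0.19) and Pnpla1 (0.20, an acylceramide enzyme), and Il1r1 to Adamts9 (0.26, a secreted protease), Tshz3 (0.28) and Rdh10 (0.29, a retinol dehydrogenase). Within the set, Il1b lay at least 1.82 from every other member, while Il1rap and Il1r2 (0.31), Il1r1 and Il1rap (0.35) and Il18 and Il1rn (0.37) were the closest pairs. These distances come from the same 12 arrays and carry no test, and genes of small range lie close to each other by this measure.

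Age gave no call in the set. At 14 against 10 weeks, Il1a differed by 0.999 ± 0.19 averaged over the 6 groups (limma adjusted p = 0.571) and was higher at 14 weeks in 6 of 6 groups, by 0.32 (WT) to 1.71 (IL-6KO). With limma 0 of 7 members passed (4 at an unadjusted p under 0.05), and 0% of all genes passed (1856 at an unadjusted p under 0.05). The other 6 members differed by at most 0.51. Il1b was higher at 14 weeks in 5 of 6 groups, from -1.13 in IL-17C+ uninvolved to 1.46 in IL-17C+KO involved skin. Each age of a group is 1 pool, so age and pool cannot be told apart within a group.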

How the data were processed

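RNA of mouse dorsal skin was measured on 12 arrays, 1 per pool. The authors deposited 1 table of array intensities made by RMA with Affymetrix Expression Console, per the submitters' processing notes, which give no versions here. RMA corrects background, normalizes between arrays and summarises probes. The intensities are on a linear scale (2.50 to 18385), so log2 was taken. Of 41345 rows, 23521 named 1 gene, and the row with the highest mean stood for each of 22180 genes. Symbols come from the platform annotation, coordinates and upstream sequences from RefSeq on GRCm38.p6.

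limma 3.58.1 in R 4.3.3 (lmFit, eBayes with intensity trend) was fitted to all genes and arrays with group plus age, with 5 residual and 7.65 prior degrees of freedom. The model was first run on simulated data with independent noise and no age change. That run cannot show how well the p-values hold where age changes differ between groups. There were 13 comparisons, each adjusted by Benjamini-Hochberg over all genes with a threshold of 0.05. Where 1 array is left out, its group keeps 1 array, assumed to vary like the other groups. The age block follows the labels. Differences between 14 and 10 weeks correlated across genes between the 15 pairs of groups at -0.21 to 0.52 (median 0.07), and 7 pairs exceeded 0.1.

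The members and gene lists were chosen with earlier results of these data known. Named differences are those of members that passed and of the largest that did not. From each pathway list up to 3 passing genes with the largest differences are named. For members whose level ranges over more than 2 on the log2 scale, the 3 genes of closest profile are named, without predicted loci, small RNAs, receptor segments and olfactory genes. Alternatives were no age block, no intensity trend, a filter on dim genes, quantile normalization again, the mean of all rows, and arrays left out. The number of arrays limits the precision.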

Additional observations from a re-analysis of the deposited data

Results flagged for a closer look

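The response of both IL-1 agonist genes to the site of the skin differed between the lines. The test of IL-17C+KO (involved minus uninvolved) minus IL-17C+ (involved minus uninvolved) gave -10.10 for Il1b and -3.40 for Il1a, with the same sign at 10 and at 14 weeks. The difference of involved skin from its label without the transgene also differed by IL-6 label, by -5.57 for Il1b and -2.64 for Il1a. In this second test Il17c was lower in IL-17C+KO involved than in IL-6KO skin (-0.77 ± 0.30), so a transgene effect is not isolated. These values of Il1b and Il1a were picked out because the interaction term itself passed the threshold of limma. Without age in the model Il1a passed in neither test (limma adjusted p = 0.0533 and 0.218). All these values rest on the site and genotype labels of both lines and, for the second test, on the IL-6KO and WT labels. An exchange of the IL-17C+KO site labels would turn the sign of the IL-17C+KO contrast, and no exchange of labels was tested.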

How the results depend on the processing

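Il1b passed in each of its 8 called comparisons under every alternative run. Without age as the replicate block, the members passing were 1 (Il1b) in IL-17C+ involved minus WT, in IL-17C+ involved minus IL-17C+ uninvolved, in IL-17C+KO uninvolved minus IL-17C+ uninvolved and in both interactions. Genes passing without that block were 7 in IL-17C+ uninvolved, 26 in IL-6KO, 3 in IL-17C+KO involved and 175 in IL-17C+KO uninvolved skin against WT (12, 101, 5 and 308 with it), 14 in IL-17C+KO involved minus IL-6KO (38) and 181 in the transgene by IL-6 interaction (290). Without the intensity trend, genes passing were 3 in IL-17C+ uninvolved and 63 in IL-6KO skin against WT, and 15 in IL-17C+KO involved minus IL-6KO. With dim genes left out (those over the array median on fewer than 2 arrays), 19 passed in the uninvolved IL-17C+ pools and 13 in the involved IL-17C+KO pools against WT, and 5 members passed in the site by IL-6 interaction. Quantile normalization again gave 678, 2, 163 and 14 genes in IL-17C+ involved, IL-17C+ uninvolved, IL-6KO and IL-17C+KO involved skin against WT, 2 in IL-17C+KO involved minus IL-6KO and 455 in the transgene interaction. It gave 1 member in IL-6KO minus WT (Il18, limma adjusted p = 0.0389) and 5 in the site interaction. Without both IL-6KO arrays, 11 genes passed in IL-17C+KO involved minus WT. The cause of these shifts was not tested.

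Leaving out 1 array at a time, genes passing ranged from 65 to 509 in IL-17C+ involved minus WT, 63 to 519 in IL-17C+ involved minus IL-17C+ uninvolved, 0 to 87 in IL-17C+ uninvolved minus WT, 7 to 153 in IL-6KO minus WT and 0 to 51 in IL-17C+KO involved minus WT. They ranged from 72 to 425 in IL-17C+KO uninvolved minus WT, 16 to 160 in IL-17C+KO involved minus IL-17C+KO uninvolved, 23 to 244 in IL-17C+KO involved minus IL-17C+ involved, 59 to 200 in IL-17C+KO uninvolved minus IL-17C+ uninvolved and 0 to 62 in IL-17C+KO involved minus IL-6KO. In the interactions they ranged from 208 to 731 (site) and 71 to 504 (transgene). Members passing ranged from 2 to 3 in IL-17C+ involved minus WT, 1 to 2 in IL-17C+ involved minus IL-17C+ uninvolved, 0 to 1 in IL-6KO minus WT, 1 to 5 in IL-17C+KO uninvolved minus WT, 1 to 3 in IL-17C+KO uninvolved minus IL-17C+ uninvolved, 2 to 4 in the site and 1 to 2 in the transgene interaction. Il1b in IL-17C+ uninvolved minus WT ranged from -0.15 to 1.63, the lowest without the 10-week IL-17C+ uninvolved array.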
